A study of Arabidopsis thaliana with 16 samples.

Results

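Among 22746 probe sets measured in Arabidopsis thaliana seedlings, 40 were lower in unheated A2QK plants than in the 3 other unheated genotypes, and were left near their 22 °C level by heat in the wild type. The members were chosen from the measured values themselves. The mean of the 2 unheated A2QK arrays had to lie at least 0.8 log2 below the mean of each of WT, hsfa2 and QK at 22 °C, the heat change of WT had to lie between -0.5 and 1, and the heat change of A2QK had to stay under 1.8. Controls and organelle-encoded genes were left out. Without that last exclusion 54 probe sets met the limits, of which 14 measured organelle genes, 13 of them plastid-encoded. The probe annotation listed 12 of the 40 members with a single gene, named several genes for 2, and held no entry for 26, which are given here by probe set number.

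The arrays compared whole seedlings, 7 days old, in 8 groups of 2 arrays each. Wild-type plants (WT) were Col-0, and hsfa2 plants carry an HSFA2 knockout in that accession. QK plants lack HSFA1a, HSFA1b, HSFA1d and HSFA1e, with a genome of mixed Col-0 and Ws origin, and A2QK, a transgenic line the design text calls A2QK-10, expresses HSFA2 from the CaMV 35S promoter in QK. Each genotype was kept at 22 °C or placed for 1 h in a water bath at 37 °C. A2QK and QK thus both lack the 4 HSFA1 genes, and the transgene, its insertion site and the segregation of Col-0 and Ws alleles in the line cannot be told apart. The arrays measure RNA from bulk tissue, in which fewer cells of a type and less RNA per cell cannot be told apart.

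HSFA1 proteins are the factors that start the heat shock response in Arabidopsis, and HSFA2 is a heat-induced factor that extends it. Both bind heat shock elements in promoters and are best known for raising the genes of heat shock proteins and other chaperones. The 35S promoter, from cauliflower mosaic virus, is active in most plant tissues without heat. The 40 probe sets are transcripts that were low with HSFA2 added and no heat, and that heat alone did not move much in the wild type. The named members have varied roles, from a cell wall protein to a DNA-binding protein, a transcriptional regulator and an oxidoreductase.

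Values are log2 signals after RMA, an Affymetrix normalization, and all differences are differences of these log2 signals, so that 1 is a factor of 2. The array medians ran from 4.87 to 5.20. Across all probe sets, replicate arrays had r of 0.985 to 0.995 in hsfa2 and A2QK but 0.959 to 0.970 in WT and QK. In WT and QK the number of the replicate mattered: the difference between array 1 and array 2 correlated across probe sets with r of 0.535 to 0.795 over the 6 pairs of WT and QK groups, and with r of -0.022 to 0.152 over the 22 other pairs of groups. Same-numbered WT and QK arrays thus deviated together, and the hsfa2 and A2QK arrays followed neither number. No label names a batch. A difference in handling between the QK and the A2QK arrays therefore cannot be told apart from a difference between the lines. Photosynthetic tissue was represented by RCA, the activase of Rubisco, at 12.20 to 13.09 on the 16 arrays, and roots by the beta-glucosidase PYK10 at 10.19 to 12.25. The measured markers were 1 of 8 for photosynthetic cells, 2 of 6 for root hairs, 1 of 6 for endodermis and root, 2 of 5 for guard cells, 1 of 3 for trichomes and 0 for vascular tissue and for seeds. Their summed levels overlapped between the A2QK arrays and the others, the closest to separate being TRY, a trichome repressor, at 2.81 to 2.91 in A2QK and 2.88 to 4.33 elsewhere. Its part in the results was not tested. The probe annotation used here pairs no probe set with HSFA2 or the HSFA1 genes, and their levels are not analysed here.

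The 2 arrays of WT and of QK lay further apart for the members than for probe sets in general. In unheated WT 14 of the 40 members differed by at least 1 between the 2 arrays (35.0%, against 9.31% of all probe sets), in unheated QK 19 (47.5%, against 7.09%), in unheated hsfa2 0 (against 0.40% of all) and in unheated A2QK 2 (5.0%, against 0.20%). The widest such gap was in 262119_s_at, at 10.73 and 6.64 on the 2 unheated WT arrays. Its 4 unheated and heated hsfa2 values lay between these, at 8.62, 8.61, 9.15 and 8.94. Group means of WT and QK therefore carry larger errors here than those of hsfa2 and A2QK.

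**Figure D1:**
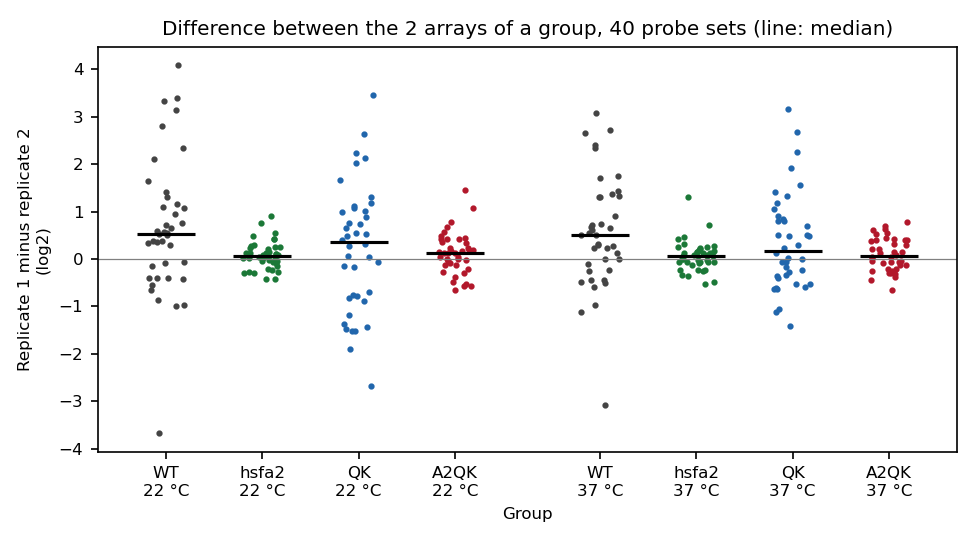
Difference in log2 signal between array 1 and array 2 of each of the 8 groups, for the 40 probe sets (points), with the median as a line. The points of WT and QK spread up to 4.08 in size at 22 °C, while those of unheated hsfa2 stay within 0.90.

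At 22 °C the gap between A2QK and the lowest of the 3 other means ran from 0.80 to 2.38 over the members, with a median of 0.97. These values chose the members and are a description. The nearest mean was that of hsfa2 in 24 members, of QK in 11 and of WT in 5. Both unheated A2QK arrays lay below all 6 other unheated arrays in 33 members, an arrangement that 6.27% of all probe sets showed. In 26 members the QK and hsfa2 means both lay within 0.8 of the WT mean, so that by group means A2QK alone stood apart. Single arrays still overlapped in some of these, as in 262119_s_at, with 6.64 on 1 WT array and 7.24 and 7.20 in A2QK. In 7 members QK was itself lower than WT by at least 0.8, and in 8 hsfa2 was. AT2G20670 and 263890_at belonged to both sets. The lowest members lay near the floor of the arrays in A2QK: 15 of the 40 had an unheated A2QK mean under 4.

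**Figure D2:**
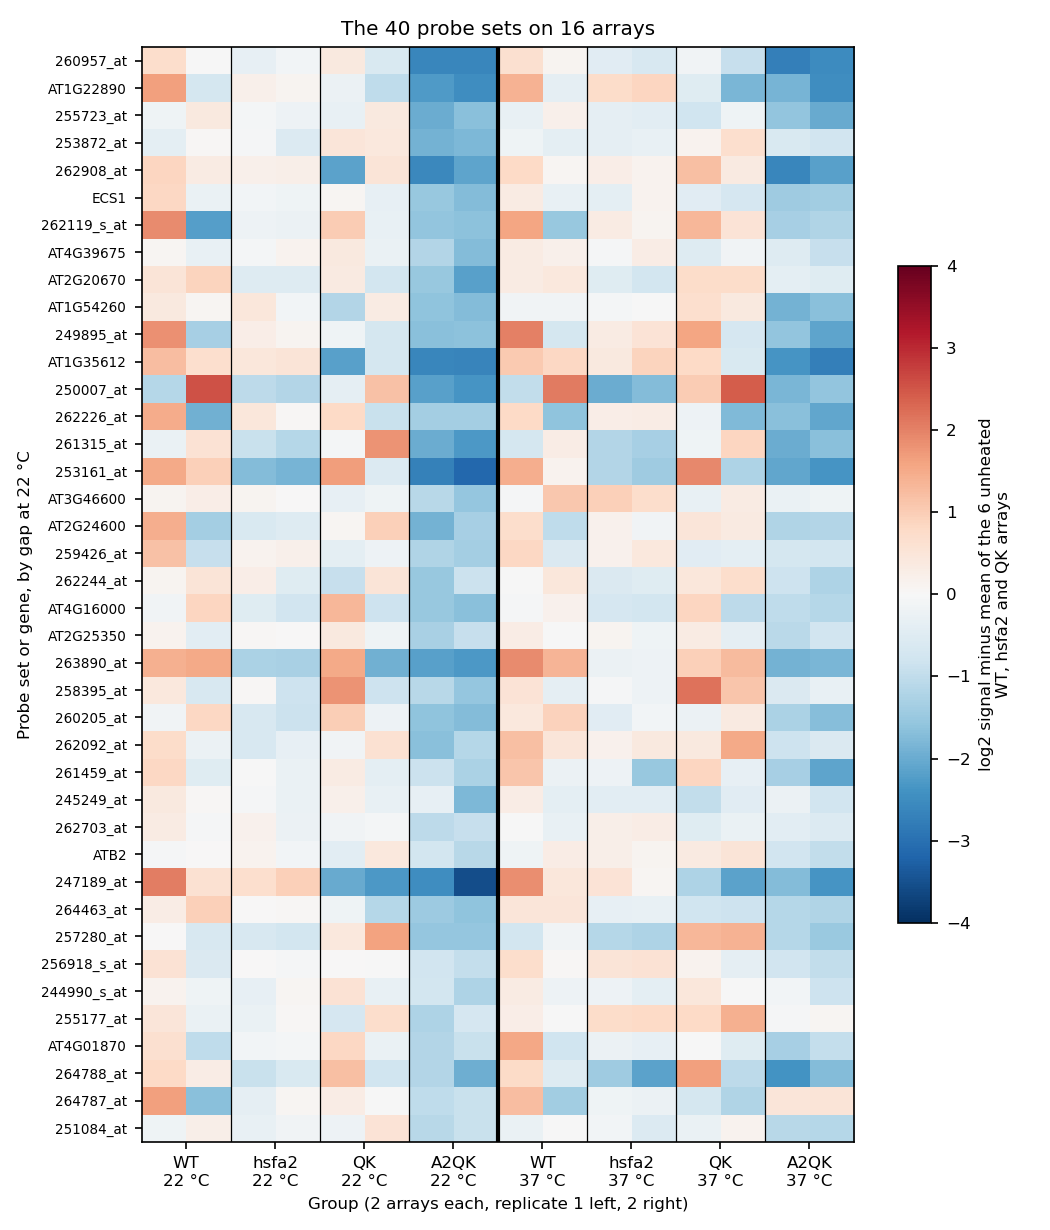
Log2 signal of the 40 probe sets on the 16 arrays, each row set against the mean of its 6 unheated WT, hsfa2 and QK arrays (colour scale, log2), with replicate 1 left and 2 right in each group. The unheated A2QK columns are blue in every row because the members were chosen so; the heated A2QK columns stay blue in most rows, and 264787_at is the clearest exception.

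The largest gap among all members belonged to 260957_at, an unnamed probe set. At 22 °C it stood at 7.66 and 6.95 in WT, 6.64 and 6.86 in hsfa2, 7.37 and 6.35 in QK, and 4.37 and 4.37 in A2QK. After heat it stood at 7.61 and 7.10 in WT, 6.53 and 6.33 in hsfa2, 6.85 and 6.04 in QK, and 4.25 and 4.46 in A2QK. The A2QK arrays were the lowest at both temperatures with no overlap.

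Among the named genes the largest gap was that of AT1G22890, a protein-coding gene of chromosome 1. Without heat its arrays read 7.80 and 5.46 in WT, 6.37 and 6.27 in hsfa2, 5.92 and 5.16 in QK, and 3.91 and 3.68 in A2QK. With heat they read 7.56 and 5.80 in WT, 6.89 and 7.01 in hsfa2, 5.67 and 4.34 in QK, and 4.29 and 3.69 in A2QK. A2QK was the lowest group at both temperatures, though after heat its higher array lay only just under the lower QK array. QK was itself 1.09 below WT at 22 °C.

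ECS1 (AT1G31580), which encodes a protein of the plant cell wall, had the highest mean level of the named members, 9.95 over all arrays. At 22 °C it stood at 11.24 and 10.14 in WT, 10.31 and 10.23 in hsfa2, 10.49 and 10.08 in QK, and 8.91 and 8.67 in A2QK. After heat the values were 10.74 and 10.12 in WT, 10.03 and 10.55 in hsfa2, 9.97 and 9.74 in QK, and 8.98 and 9.02 in A2QK. The A2QK arrays lay below all others at both temperatures, and at this level the floor of the scale does not bear on the gap.

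AT1G35612, which RefSeq classes as a pseudogene, lay at the bottom of the scale in A2QK. At 22 °C it read 6.05 and 5.50 in WT, 5.28 and 5.36 in hsfa2, 2.64 and 4.13 in QK, and 2.23 and 2.19 in A2QK. After heat it read 5.87 and 5.64 in WT, 5.23 and 5.72 in hsfa2, 5.63 and 4.21 in QK, and 2.46 and 2.08 in A2QK. QK was intermediate and uneven without heat, and A2QK stayed at the bottom with no overlap.

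The DNA-binding protein among the named members was AT1G54260, a winged-helix protein of the histone H1/H5 type. At 22 °C it stood at 5.37 and 5.03 in WT, 5.43 and 4.87 in hsfa2, 3.79 and 5.30 in QK, and 3.37 and 3.24 in A2QK. After heat it stood at 4.83 and 4.83 in WT, 4.89 and 4.96 in hsfa2, 5.65 and 5.36 in QK, and 3.07 and 3.28 in A2QK. One unheated QK array came close to A2QK, whereas after heat both QK arrays were the highest of all. AT3G46600, of the GRAS family of transcriptional regulators, behaved otherwise: A2QK read 6.44 and 6.02 without heat and 7.28 and 7.37 with it, against 7.27 and 7.89 in heated QK and 7.51 to 8.62 in heated WT and hsfa2. Its heated A2QK arrays thus overlapped those of QK.

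ATB2 (AT1G60710), an oxidoreductase of the aldo-keto reductase family, showed a small and steady gap. At 22 °C it stood at 8.71 and 8.78 in WT, 8.92 and 8.67 in hsfa2, 8.36 and 9.18 in QK, and 8.03 and 7.67 in A2QK. After heat it stood at 8.61 and 9.05 in WT, 8.99 and 8.87 in hsfa2, 9.12 and 9.28 in QK, and 8.0 and 7.80 in A2QK. A2QK was below every other array at both temperatures.

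AT2G20670, of a plant family of unknown function (DUF506), had the largest A2QK heat change of the named members, 1.40. At 22 °C it stood at 10.06 and 10.45 in WT, 9.05 and 9.03 in hsfa2, 9.90 and 8.83 in QK, and 8.04 and 7.37 in A2QK. After heat it stood at 9.88 and 9.98 in WT, 9.08 and 8.83 in hsfa2, 10.28 and 10.28 in QK, and 9.15 and 9.06 in A2QK. Heated A2QK came level with hsfa2, while WT and QK stayed above both.

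**Figure D3:**
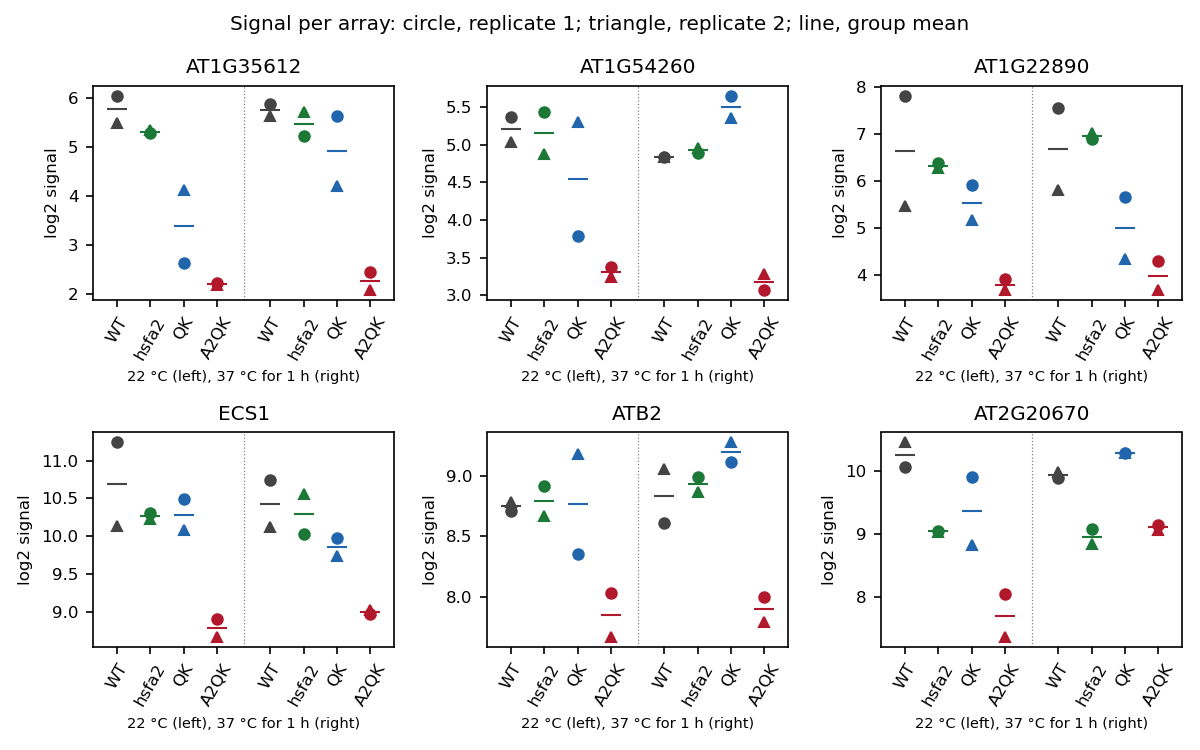
Log2 signal on each array for 6 named members, 22 °C on the left and 37 °C for 1 h on the right of each panel, with circles for replicate 1, triangles for replicate 2 and lines for group means. Red A2QK points stay at the bottom after heat for AT1G35612, AT1G54260, AT1G22890, ECS1 and ATB2, and meet the hsfa2 points for AT2G20670.

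The other named members had smaller gaps or less even arrays. AT2G24600, an ankyrin repeat protein, read 6.45 and 3.63 in unheated WT and 3.11 and 3.67 in unheated A2QK, so that A2QK overlapped WT. AT4G01870 overlapped likewise, at 8.24 and 6.59 in unheated WT and 6.45 and 6.72 in unheated A2QK. AT2G25350, which encodes a protein with a phosphoinositide-binding PX domain, stood at 3.24 and 3.61 in unheated A2QK, under 4.10 to 4.92 in the other genotypes. AT4G16000 stood at 3.72 and 3.56, under 4.40 to 6.54, and AT4G39675 at 6.84 and 6.27, under 7.71 to 8.39. These 3 separated without heat.

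The heat changes that the rule limits are given as a description. In WT they ran from -0.45 to 0.58 with a median of -0.08, well inside the upper limit of 1. In A2QK they ran from -0.67 to 1.46 with a median of 0.32: 21 members lay within 0.5 of no change, 16 at 0.5 or above and 3 at -0.5 or below. The gap to the lowest other mean had a median of 0.78 after heat, was still at least 0.8 in 19 members, and was below 0 in 4, AT2G20670 (-0.15), 250007_at (-0.15), 245249_at (-0.22) and 264787_at (-1.46). The members nearest the limits were 251084_at inside the gap limit, at 0.80, with 265530_at outside at a value that also rounds to 0.80; 253161_at inside the lower WT limit, at -0.45, with 250248_at outside at -0.50; and 264787_at inside the A2QK limit, at 1.46, with 267028_at outside at 1.92.

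After heat, on arrays that the rule used little or not at all, most members were still lower in A2QK than in QK, the parent genotype. The heated QK arrays do not enter the rule, and the heated A2QK arrays enter only through the limit on the A2QK heat change. Across all probe sets, the difference between array 1 and array 2 correlated between heated and unheated QK (r = 0.623). It also correlated between heated QK and unheated WT (r = 0.61). Heated QK values are therefore not fully independent of the unheated values that chose the members. The difference was below 0 in 38 of 40 members, with a median of -1.24, against -0.02 over all probe sets. By limma with Benjamini-Hochberg adjustment 15 members were lower and 0 higher, where 6.12% of all probe sets were lower and 6.2% higher. At an unadjusted p under 0.05 these were 25 and 0, where 13.8% of all probe sets were lower and 11.3% higher. Both A2QK arrays lay below both QK arrays in 32 members, an arrangement seen in 31.1% of all probe sets. Set against QK array 1 and array 2 apart, the median difference was -1.25 and -1.22.

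The named genes that fell below QK were AT1G35612 (-2.65 ± 0.48, log2 ± SE as for all such values; adjusted p = 0.00384), AT1G54260 (-2.33 ± 0.37, adjusted p = 0.0017), ATB2 (-1.30 ± 0.25, adjusted p = 0.00603) and AT2G20670 (-1.18 ± 0.31, adjusted p = 0.0276). Among unnamed members the widest differences that passed were those of 262908_at (-3.18 ± 0.64), 263890_at (-2.98 ± 0.75) and 257280_at (-2.67 ± 0.34). ECS1 (-0.85 ± 0.33, adjusted p = 0.126), AT1G22890 (-1.01 ± 0.72, adjusted p = 0.44) and AT2G24600 (-1.61 ± 0.74, adjusted p = 0.201) did not pass. AT3G46600 gave -0.26, with an interval from -0.95 to 0.43, and AT4G39675 gave -0.38, from -0.98 to 0.21. When the replicate number was fitted as a block for WT and QK arrays, 26 members were lower than QK and 0 higher, where 12.5% of all probe sets were lower and 10.2% higher. Those gained included ECS1 (adjusted p = 0.0114), AT1G22890 (adjusted p = 0.025) and AT2G25350 (-0.92, adjusted p = 0.00209). That block, chosen after seeing the data, takes out a spread which the A2QK arrays do not share. It leaves the differences themselves unchanged, and AT1G22890 ran from -1.68 to -0.35 with a heated array left out. Fewer than 15 members passed with a heated A2QK or QK array left out. No share of all probe sets is given for those fits, so this drop is not read as a trait of the members.

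Against hsfa2 after heat, whose arrays are also outside the rule and lay close together, the members were lower as well. The difference was below 0 in 37 of 40, with a median of -0.91, against -0.06 over all probe sets. By limma 12 members were lower and 0 higher, where 5.82% of all probe sets were lower and 7.58% higher, and 20 and 0 at an unadjusted p under 0.05 (13.9% of all probe sets were lower and 13.2% higher). Both A2QK arrays lay below both hsfa2 arrays in 32 members, an arrangement seen in 34.1% of all probe sets. The named genes called were AT1G35612 (-3.20 ± 0.48, adjusted p = 0.00124), AT1G22890 (-2.96 ± 0.72, adjusted p = 0.0192), AT1G54260 (-1.75 ± 0.37, adjusted p = 0.00973), ECS1 (-1.29 ± 0.33, adjusted p = 0.0245), AT3G46600 (-1.05 ± 0.32, adjusted p = 0.048) and ATB2 (-1.03 ± 0.25, adjusted p = 0.0209). AT2G25350 (-0.90 ± 0.28, adjusted p = 0.06) and AT4G39675 (-0.84 ± 0.27, adjusted p = 0.0628) missed the threshold and passed it with the block for WT and QK (adjusted p = 0.00275 and 0.0296), a fit in which 19 members were lower (10.8% of all probe sets were lower and 11.9% higher). AT2G20670 was level, at 0.15, with an interval from -0.52 to 0.82. The SE is pooled over all 16 arrays and so includes the wide spread of WT and QK: with the heated A2QK and hsfa2 arrays alone 27 members were lower and 1 higher, where 7.14% of all probe sets were lower and 9.74% higher. With a heated A2QK or hsfa2 array left out, fewer than 12 members passed, again with no share of all probe sets to set this against.

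The differences from heated WT are a description, since the rule bounded each of their parts: the difference at 22 °C, the heat change of WT and that of A2QK. They were below 0 in 39 of 40 members, with a median of -1.36, against -0.01 over all probe sets. The same threshold was passed by 19 members, all lower, where 4.88% of all probe sets were lower and 6.63% higher; with the block for WT and QK it was 27, against 9.72% and 11.5%. Nothing is read from these counts, because the members were chosen on values that make up the difference. The named values ran from -3.49 in AT1G35612 and -2.69 in AT1G22890 to -0.74 in AT3G46600, with ECS1 at -1.43 and ATB2 at -0.93. A single WT array set some of them: AT3G46600 was at -1.30 without WT heat replicate 1 and -0.18 without WT heat replicate 2, and AT4G01870, at -1.52 with both, was at -0.35 and -2.69. Leaving out a heated A2QK or WT array left fewer than 19 passing, with no share of all probe sets given for those fits. The comparisons with QK, hsfa2 and WT share the heated A2QK arrays and are not independent of each other. Both A2QK arrays lay below all 6 other heated arrays in 23 members, 8 of them named, an arrangement seen in 8.41% of all probe sets. The heated WT arrays are among these 6, so this count too is a description.

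**Figure D4:**
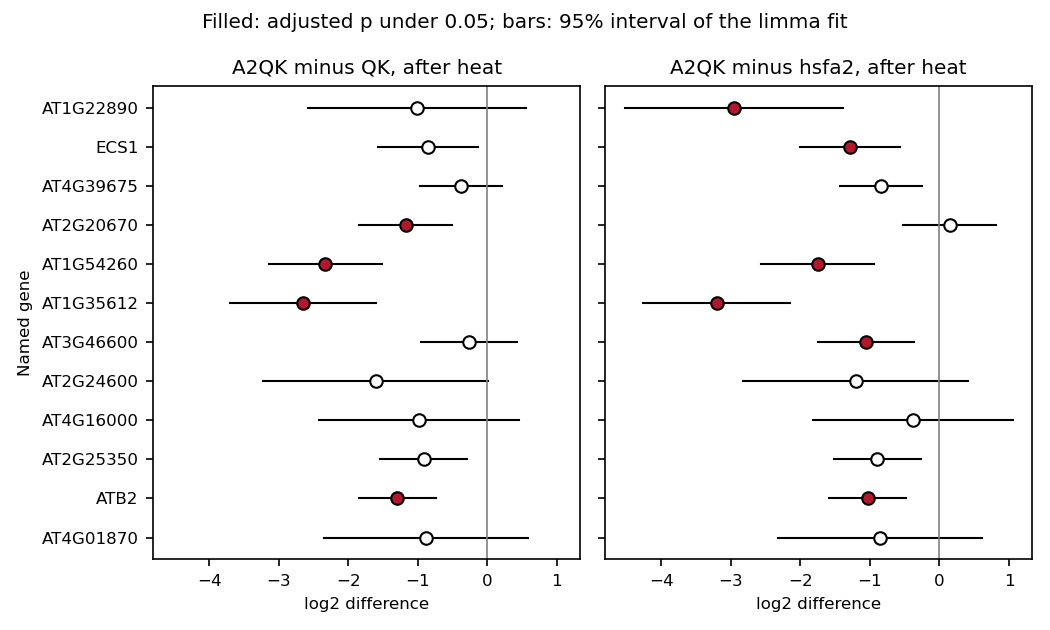
Log2 difference between heated A2QK and heated QK (left) and heated hsfa2 (right) for the 12 named members, with 95% intervals of the limma fit, filled where the adjusted p is under 0.05. AT1G35612, AT1G54260 and ATB2 are filled in both panels, AT2G20670 on the left alone, and AT2G24600, AT4G16000, AT4G01870, AT2G25350 and AT4G39675 in neither.

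Dropping the limit on the A2QK heat change left 49 probe sets and took the heated A2QK arrays out of the choice of members altogether. Of these 49, 16 were lower than QK after heat and 13 lower than hsfa2, where 6.12% and 5.82% of all probe sets were lower. Higher than either were 0, where 6.2% and 7.58% of all probe sets were higher. The medians of the 49 were -1.04 and -0.85. The 9 probe sets added by dropping the limit are those with an A2QK heat change of 1.8 or more. Of these 9, 1 was lower in each of the 2 comparisons, a count too small to tell from the shares of all probe sets.

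The heat changes of the members in QK and hsfa2, whose heated arrays the rule did not use, went both ways. In QK they ran from -1.11 to 1.59, with 9 members at 0.8 or above and 2 at -0.8 or below, and in hsfa2 from -1.04 to 1.05, with 2 and 1. Their unheated arrays had to lie above those of A2QK, so these differences are not fully independent of the rule. In QK the median change was -0.08, against 0.03 over all probe sets, and in hsfa2 it was -0.02, against 0.03. By limma 0 members passed in either line, where in QK 4.34% of all probe sets were lower and 2.52% higher and in hsfa2 8.33% and 5.61%; at an unadjusted p under 0.05, 5 were higher in QK (8.55% of all probe sets were higher and 11.1% lower) and 1 in hsfa2 (12.9% higher and 14.9% lower). The 5 were 262908_at (1.59 ± 0.64), AT1G35612 (1.54 ± 0.48, adjusted p = 0.0857), 255177_at (1.09 ± 0.40), AT1G54260 (0.96 ± 0.37, adjusted p = 0.169) and AT2G20670 (0.92 ± 0.31, adjusted p = 0.108), and that in hsfa2 was AT3G46600 (0.77 ± 0.32, adjusted p = 0.136). Some of the rises in QK lay on array 1. There 262908_at read 6.59 unheated and 9.94 heated, against 9.27 and 9.10 on array 2. AT1G35612 read 2.64 and 5.63 on array 1, against 4.13 and 4.21 on array 2. AT1G54260 read 3.79 and 5.65 on array 1, against 5.30 and 5.36 on array 2. Both 255177_at and AT2G20670 rose on each array. Some members, all of them higher, passed in QK in fits that left out an unheated array. No share of all probe sets is given for those fits. The count in QK was 3 with the block for WT and QK (1 lower and 2 higher, against 9.37% and 5.61% of all probe sets). The count in hsfa2 was 1, higher, with that block (14.1% of all were lower and 9.42% higher) and 6 with the hsfa2 arrays alone (1 lower and 5 higher, against 9.89% and 5.1%). The heat responses of QK and hsfa2 differed for 0 members by limma (1.12% of all probe sets were lower and 0.624% higher in QK), with 2 at an unadjusted p under 0.05 (5.31% of all higher and 5.38% lower), AT1G54260 (1.18 ± 0.53) and AT2G20670 (1.00 ± 0.43), both larger in QK. The AT1G54260 value rests largely on the low unheated QK array 1, at 3.79.

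Heated QK and heated hsfa2, none of whose arrays the rule used, differed at 6 members: 4 were higher in QK and 2 lower, where 12% of all probe sets were higher and 10.9% lower. The higher ones were 250007_at (3.58, adjusted p = 0.0377), 257280_at (2.55 ± 0.34, adjusted p = 0.000355), AT2G20670 (1.33 ± 0.31, adjusted p = 0.0101) and 253872_at (0.73 ± 0.22, adjusted p = 0.0325). The lower ones were 247189_at (-2.0 ± 0.55, adjusted p = 0.0236) and 262703_at (-0.64 ± 0.19, adjusted p = 0.0303). The share called is near that of all probe sets, and the split depends on scaling: with the array medians set equal 3 were higher and 4 lower. Over all probe sets that scaling took the share of higher calls from 52.4% to 26.4%, so the shift is not particular to the members. The member with the largest deficit of QK against WT at 22 °C, 247189_at, read 8.77 and 7.35 in unheated WT and 4.72 and 4.44 in unheated QK, close to 4.25 and 3.17 in A2QK. In it the step from WT to QK was larger than that from QK to A2QK. The count of 6 was 16 with the block for WT and QK (6 lower and 10 higher, against 16.7% and 18.9% of all probe sets). Fewer than 6 passed with a heated QK or hsfa2 array left out, where no share of all probe sets is given.

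The 12 named members lay on chromosome 1 (5), chromosome 2 (3), chromosome 4 (3) and chromosome 3 (1), each measured by 1 probe set. Of the 5 nearest measured named genes on each side of each member, 120 genes in all, 0 met the gap limit at 22 °C. Of the 13205 named nuclear genes that are not members, these 120 among them, 0.167% did. At that share 0 of 120 is near the background. The median gap of these neighbours was -0.20, and over the 13205 genes -0.19. The highest gap in a neighbour was 0.38, in AGL92 beside ECS1.

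Of 20 lists of gene families and pathways matched to RefSeq names, 15 held a measured gene and 0 held a member. The lists cover 257 genes, 1.91% as many as the 13436 probe sets matched to a gene, so 0 of 12 named members is near that share. After heat against hsfa2, the cytochrome P450 list had 4 of 24 genes lower and 1 higher, the cell wall list 1 and 5 of 35, and the list of MYB, WRKY, NAC, ERF, bHLH and bZIP factors 0 and 6 of 39. Glucosyltransferases and glutathione transferases had 2 lower and 7 higher of 57, F-box and ubiquitin ligase proteins 3 and 3 of 29, and defensin-like peptides 1 and 2 of 29, where 5.82% of all probe sets were lower and 7.58% higher. Against QK the same lists had 1 lower and 2 higher, 3 and 0, 3 and 2, 5 and 5, 3 and 2, and 4 and 2, in that order, where the shares of all probe sets were 6.12% and 6.2%. With the array medians set equal, the share of higher calls against hsfa2 over all probe sets was 37% in place of 56.6%. Against hsfa2 the medians of these 6 lists lay between -0.15 and 0.13, where the median of the 40 members was -0.91. The lists rest on gene names alone and can miss family members without such a name. No list is titled for the GRAS family of AT3G46600, and the cell wall list did not hold ECS1.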

How the data were processed

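RNA from whole seedlings was hybridised to 16 Affymetrix arrays in 8 groups of 2. The deposited values are log2 signals per probe set, made by the authors with RMA, per the submitters' processing notes; the sources used here do not give the software version, the chip definition or whether all arrays were normalized together. Arrays have no read depth, and their number limits the precision. No label says whether replicate arrays hold separately grown seedlings; the spread that p-values rest on may therefore be technical.

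Of the probe sets, 64 controls were left out and 22746 tested; the annotation listed 13513 with 1 gene, 503 with several genes and 8730 with none, and 13436 were matched to RefSeq genes of TAIR10.1, used for names and gene order only. Group means were fitted in limma 3.58.1 (R 4.3.3) (8 residual and 3.37 prior degrees of freedom), two-sided, with Benjamini-Hochberg adjustment over all probe sets and a threshold of 0.05. The fit was tested on simulated data. Same-numbered WT and QK arrays deviated together in all 6 pairs of groups, so the number was also fitted as a block there. Comparisons that the rule used, with WT after heat among them, are given as descriptions. Members, lists and tests were chosen with earlier results of these data known. Named are members with exactly 1 listed gene, ranked by gap, difference or heat change.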

Additional observations from a re-analysis of the deposited data

How the results depend on the processing

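With each array left out in turn, the number of members called ran from 5 to 11 for A2QK against QK after heat, 3 to 5 against hsfa2, 6 to 14 against WT, 1 to 4 for QK against hsfa2, 0 to 5 for the heat response of QK and 0 to 0 for that of hsfa2; a group then rests on 1 array assumed to vary like the others. The wider gap of 1.2 left 11 members, of which 6 were lower than QK after heat, 6 lower than hsfa2 and 7 lower than WT, and 2 differed between QK and hsfa2, where fewer members are counted by construction. With only the compared arrays fitted, 27 members were lower than hsfa2 and 6 responded to heat in hsfa2. Without the limit on the A2QK heat change, 3 of 49 responded in QK and 3 in hsfa2. Over all probe sets 4.34% were lower and 2.52% higher in QK, and 8.33% and 5.61% in hsfa2. With the number as a replicate block over all arrays, 21 members were lower than QK, 15 than hsfa2 and 21 than WT, and 11 differed between QK and hsfa2. Shares called over all probe sets are not given for this fit. Nor are they given for left-out arrays, equal array medians or dim probe sets left out. The member counts of these fits were therefore not set against such a share. With the block within WT and QK, chosen after seeing the data, the counts were 26 against QK, 19 against hsfa2, 27 against WT, 3 and 1 for the heat responses of QK and hsfa2, and 16 for QK against hsfa2. AT3G46600 against QK was -0.26 and ran from -0.57 to 0.053 with an array left out, above 0 without QK heat replicate 2. Setting array medians equal shifted the median difference over all probe sets by -0.13 for A2QK against hsfa2, 0.19 for the hsfa2 heat response and -0.22 for QK against hsfa2, and the share of rises among all calls from 50.3% to 61% (A2QK against QK), 56.6% to 37% (against hsfa2), 36.7% to 48.1% (QK heat), 40.3% to 68.4% (hsfa2 heat) and 52.4% to 26.4% (QK against hsfa2); members lower in A2QK were then 15, 17 and 19. Leaving out dim probe sets kept 27 members, of which 11, 9 and 15 were lower than QK, hsfa2 and WT. The unlisted member with the lowest unheated A2QK level has a number between those of plastid genes; without it, a choice made after seeing the data, the counts were again 15, 12 and 19. Cause was not tested for any of these shifts, and some of the fits held fewer arrays or members. Signals near the floor of the arrays limit differences of dim members.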
